A study of Sus scrofa with 12 samples.

Results

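The genes described here are transcription factors that set or keep the identity of a cell lineage: the HOX genes and other homeobox genes, and the SOX, FOX, KLF, GATA, ETS, SNAI, TBX, RUNX and TEAD families. Their members were chosen by gene symbol, from a fixed pattern of family names. The rule used no measured value, but it was set with earlier results of these data known. FOXJ1, the regulator of motile cilia, was left out by that rule. The pattern matched 141 of the 30461 gene rows, under 140 symbols, because FOXS1 stood on 2 rows. Of the 141 rows, 69 had enough counts to be tested. A symbol was missing for 56.5% of the gene rows, so a factor whose row has no symbol is outside these counts.

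Oviduct epithelial cells of pigs were measured in 3 groups of 4 libraries, in a series about making uniform spheroids in quantity. Fresh cells were freshly isolated single cells obtained by scraping. The other cells had formed spheroids, which are 3-dimensional clusters in culture, either in DMEM/F12, a common basal medium, or in what the labels call Incubation Medium. The library names add FBS for the first medium and Diff for the second without explaining them, and the labels used here name no age, cycle stage, time in culture or number of animals. Totals ran from 5045187 to 8603774 counts per library, lowest in the fresh cells.

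In the fresh cells and spheroids the epithelial label could be compared with marker genes. The 7 epithelial marker rows summed to between 4055 and 8143 CPM (counts scaled to library size) in every library, and OVGP1, the oviductal glycoprotein of secretory cells, had a mean of 22200 ± 4586 CPM (SD, n = 4) in the fresh group, against 399 ± 251 and 469.8 ± 319.7 CPM in DMEM/F12 and incubation medium spheroids. Markers of multiciliated cells fell in both media, 6 of 6 tested, from 682 to 874 CPM summed in fresh cells to 79.9 to 206 and 85.9 to 162 CPM in spheroids. Markers of leukocytes summed to 34.9 to 50.9 CPM in fresh cells, 11.4 to 33.5 in DMEM/F12 and 4.02 to 25.6 in incubation medium. Those of stroma summed to 759 to 1128, 142 to 222 and 88.0 to 147 CPM, mostly from FBLN1. Of the 7 stromal genes tested, 3 were called lower in DMEM/F12 and 6 in incubation medium, while THY1 was called higher in both (6.29 and 4.14). The endothelial gene VWF was at 0 in all but the incubation medium group, where it averaged 0.0975 CPM, while CDH5 and KDR were called higher in both media and PECAM1 lower in both (-0.93 and -0.91). The endothelial list, carried by CDH5 and KDR in spheroids, summed to 41.9 to 57.4, 137 to 253 and 92.4 to 149 CPM. Smooth muscle markers summed to 52.4 to 65.3, 82.2 to 164 and 31.4 to 42.6 CPM, mostly from SMTN, which was called higher in DMEM/F12 alone. CNN1 and SYNPO2 of that list were called lower in both media, and 2 of its 5 tested genes were called in neither. Markers of oviduct secretory cells were called lower for 2 of 3 tested in each medium, and genes of the estrogen and progesterone axis for 5 of 6. The remaining gene of each list was called higher in both media, MUC1 (1.78 and 1.57) and WNT7A (1.97 and 1.39). Over all tested genes 35.7% were called lower in DMEM/F12 and 35.8% in incubation medium. In bulk RNA, fewer cells of a type and less RNA per cell cannot be told apart.

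Lineage factors bind DNA through a family domain and switch programmes of genes on or off. HOX proteins give position along the body and, in the female tract, help divide the Müllerian duct into oviduct, uterus and cervix, together with the MEIS and PBX cofactors. SOX, FOX, GATA and ETS factors such as ELF3 and EHF maintain epithelial types, and several KLF genes are also switched on within minutes by growth factors, shear or tissue handling.

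A gene was tested where its counts passed a filter of about 1.3 CPM in 4 libraries, and was called higher or lower where edgeR's quasi-likelihood test gave an adjusted p under 0.05 over all tested genes. Of transcription factors in DMEM/F12 spheroids, 36 of the 69 tested members were called lower than in fresh cells and 14 higher. Of all 14070 tested genes 35.7% were called lower and 35.1% higher. The median log2 fold change was -0.57 over the tested members and -0.01 over all tested genes. In incubation medium spheroids 36 members were called lower and 13 higher, where all genes gave 35.8% in each direction. The medians were -0.60 over the members and -0.01 over all genes. Both comparisons use the same fresh cells. Between the media 12 members were called lower and 9 higher in incubation medium, beside 12.3% and 12.7% of all genes, with a median of -0.01 over the members. Members with both groups apart, meaning that the ranges did not overlap, numbered 45 and 42 against fresh cells and 17 between the media, while 65.4%, 64.9% and 26.9% of all genes had both groups apart. By these counts lower calls were more common among the lineage factors than over all genes, and higher calls less common, in each medium against fresh cells, without a test of that difference. Called in either direction were 50 members in DMEM/F12 and 49 in incubation medium, beside 70.7% and 71.7% of all genes. Of the calls in DMEM/F12, 30 were at least 2-fold (8 higher and 22 lower), beside 35.4% of all genes (15.1% higher and 20.3% lower). In incubation medium 25 were at least 2-fold (6 higher and 19 lower), beside 36.9% (15.3% and 21.5%).

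**Figure D1:**
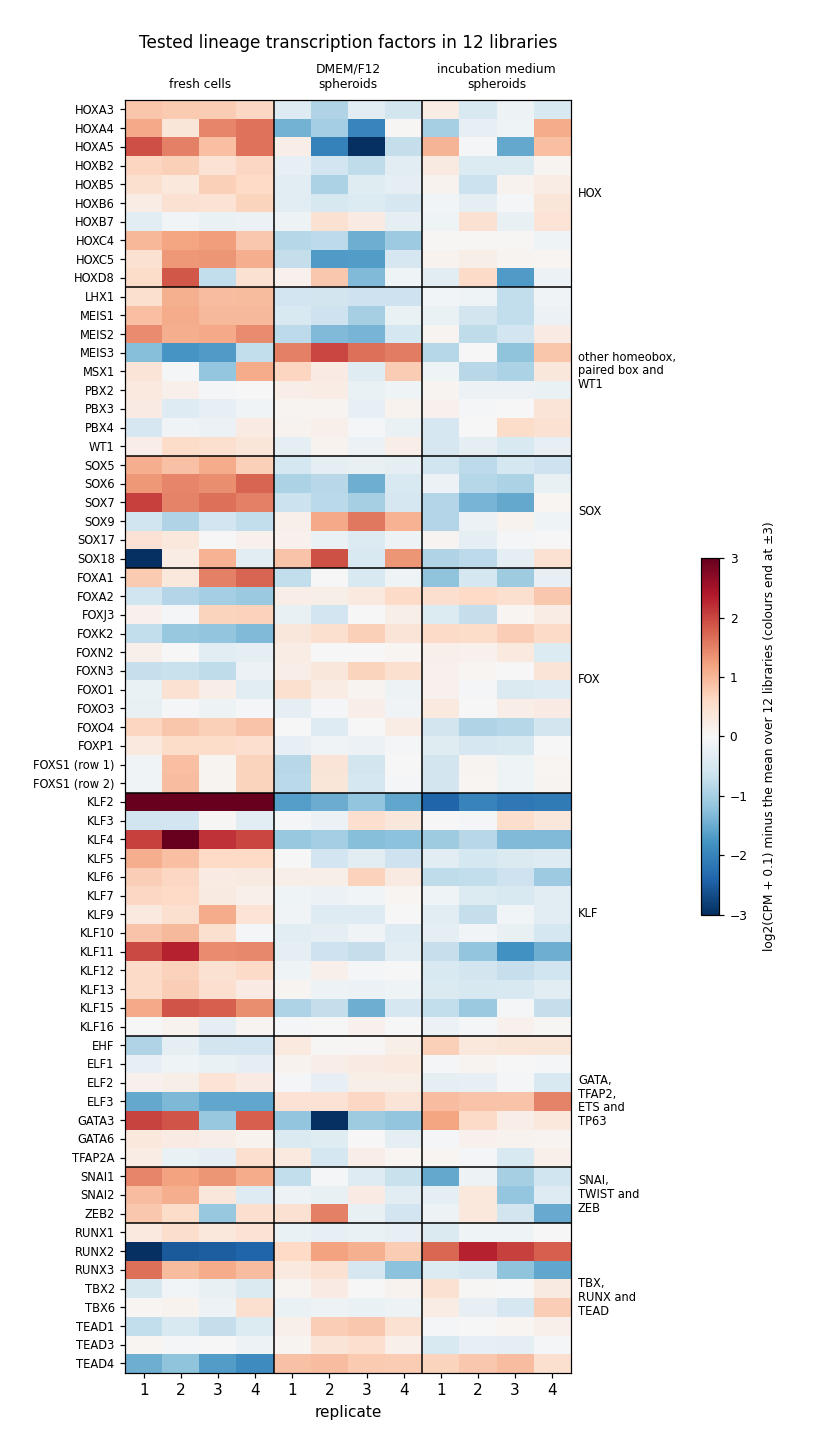
Each row is 1 of 68 of the 69 tested member rows and each column 1 library; colour gives log2(CPM + 0.1) minus the row's mean over the 12 libraries, in log2 units. HOXC4, MEIS1, SOX6, SOX7, KLF2 and KLF4 are red in the 4 fresh cell libraries, while RUNX2, TEAD4, ELF3 and FOXA2 are red in the 8 spheroid libraries.

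Most tested HOX genes fell. Of 10, 8 were called lower in DMEM/F12 and 7 in incubation medium, and none was called higher. Over all genes 35.7% and 35.8% were called lower, and 35.1% and 35.8% higher. HOXC4 (ENSSSCG00025038544) stood at 94.3, 108, 113 and 82.9 CPM in fresh cells, 26.1, 27.5, 17 and 22.3 in DMEM/F12 and 48.2, 48.4, 48.3 and 43 in incubation medium. Fresh cells were highest in every library, DMEM/F12 lowest, and no groups overlapped. Against fresh cells it changed by a log2 fold change of -2.10 (SE 0.137, adjusted p = 1.01e-08) in DMEM/F12 and -1.08 (SE 0.131, adjusted p = 4.01e-06) in incubation medium. HOXC5, its neighbour in the HOXC cluster, showed the same order at 7.78 ± 1.93 CPM in fresh cells, 1.7 ± 0.763 in DMEM/F12 and 3.91 ± 0.167 in incubation medium (SD, n = 4), with log2 fold changes of -2.18 (adjusted p = 9.28e-06) and -0.99 (adjusted p = 0.00348). Transcripts of neighbouring HOX genes can overlap, so these 2 rows may not be independent.

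In the HOXB cluster, HOXB2 (ENSSSCG00025006267) was at 73.6, 78, 63.6 and 72.2 CPM in fresh cells, 40.1, 31.5, 27.9 and 37.3 in DMEM/F12 and 56.6, 35.3, 35.6 and 50.4 in incubation medium. Every spheroid library lay below every fresh one, with log2 fold changes of -1.07 (adjusted p = 2.63e-05) and -0.69 (adjusted p = 0.00105). HOXB5 fell by the same test, -0.99 (adjusted p = 0.000207) and -0.54 (adjusted p = 0.0141), and so did HOXB6, -0.88 (adjusted p = 3.21e-05) and -0.44 (adjusted p = 0.00686), although 1 incubation medium library of HOXB6 reached into the range of the fresh cells. HOXB7, the next gene of that cluster, was not called, at 8.63 ± 0.619 CPM in fresh cells, 10.7 ± 2.53 in DMEM/F12 and 11.1 ± 2.71 in incubation medium (log2 fold changes 0.31, adjusted p = 0.184, and 0.36, adjusted p = 0.126).

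The HOXA genes rested on low counts. HOXA3 was at 9.65 ± 0.611 CPM in fresh cells, 3.93 ± 0.672 in DMEM/F12 and 5.03 ± 1.19 in incubation medium, and both media were called lower, -1.30 (adjusted p = 2.78e-05) and -0.93 (adjusted p = 0.00043). HOXA5 was at 5.04, 3.76, 2.43 and 4.11 CPM in fresh cells, 1.46, 0.232, 0 and 0.719 in DMEM/F12 and 2.62, 1.2, 0.368 and 2.41 in incubation medium. The fresh libraries lay above all DMEM/F12 libraries but overlapped those of incubation medium. DMEM/F12 was called lower, -2.62 (adjusted p = 0.00187), and incubation medium was not, -1.21 (adjusted p = 0.0617); with the replicate block it was, at -1.27 (adjusted p = 0.00413). HOXA4, at 2.04 ± 0.727 CPM in fresh cells and only 0.39 ± 0.312 and 0.909 ± 0.666 in the 2 spheroid groups, was called lower in both media, -2.31 (adjusted p = 0.0019) and -1.16 (adjusted p = 0.0463). The incubation medium call of HOXA4 was lost when any one of fresh cell replicates 1, 3 and 4, DMEM/F12 replicates 1 and 2 or incubation medium replicates 1, 2 and 3 was left out (adjusted p 0.0557 to 0.13), and the log2 fold change was -1.75 without incubation medium replicate 4.

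HOXD8 (ENSSSCG00025025884) followed the replicate number. It was at 5.56, 14, 2.24 and 5.28 CPM in fresh cells, 4.13, 6.72, 1.45 and 3.48 in DMEM/F12 and 2.98, 5.73, 1.11 and 3.35 in incubation medium. Replicate 2 was the highest and replicate 3 the lowest library of every group, so the groups overlapped. HOXD8 was not called against fresh cells, -0.77 (adjusted p = 0.21) and -1.05 (adjusted p = 0.0982), but with the replicate block it was called lower in both media, -0.73 (adjusted p = 0.00267) and -0.999 (adjusted p = 0.000288). The other 17 HOX rows did not pass the filter, and 14 of them held 3 counts or fewer in every library. Among these were HOXA9 and HOXA10, which pattern the oviduct and uterus in the mouse embryo, and HOXB9, HOXC9 and HOXC10. In the HOXA, HOXB and HOXC clusters the tested rows therefore all had numbers of 7 or lower. Such a row shows few counts, which does not show that the gene is off.

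**Figure D2:**
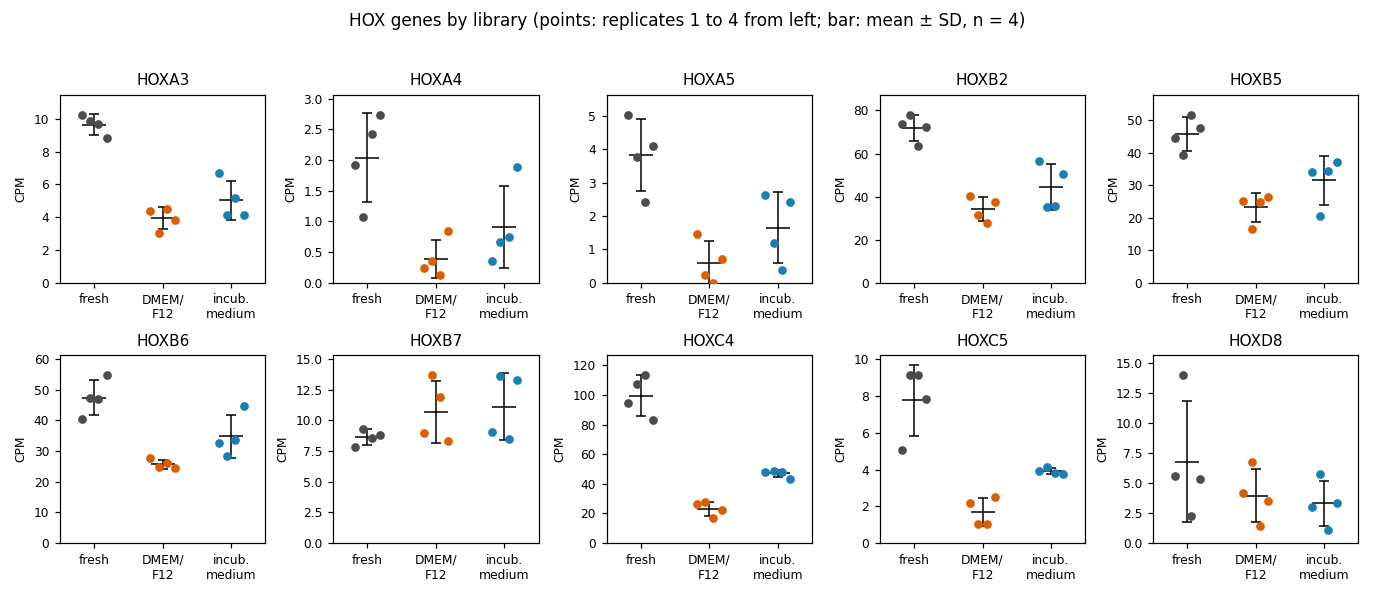
CPM of the 10 tested HOX genes in each library, on axes from 0; points are replicates 1 to 4 from left to right, bars the mean ± SD of 4 libraries. The 3 groups of HOXC4 are apart, HOXB7 overlaps throughout, and HOXD8 repeats its order by replicate with replicate 2 on top.

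The cofactors of HOX proteins moved in both directions. MEIS1 (ENSSSCG00025040370), a homeobox cofactor, was at 338, 391, 356 and 359 CPM in fresh cells, 131, 118, 91.2 and 158 in DMEM/F12 and 158, 123, 109 and 159.6 in incubation medium. The fresh libraries were all above the spheroid libraries, with log2 fold changes of -1.53 (SE 0.156, adjusted p = 7.25e-07) and -1.39 (SE 0.155, adjusted p = 1.78e-06). Its counts had fractions in 58.3% of libraries, so part of its reads was shared with other features. MEIS2 was lower too, at 54.1 ± 6.74 CPM in fresh cells, 11.5 ± 3.39 in DMEM/F12 and 19.5 ± 6.54 in incubation medium, with log2 fold changes of -2.23 (adjusted p = 8.66e-07) and -1.47 (adjusted p = 3.3e-05).

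MEIS3 (ENSSSCG00025013638) went the other way, at 1.04, 0.716, 0.746 and 1.56 CPM in fresh cells, 7.77, 10.9, 8.58 and 7.91 in DMEM/F12 and 1.43, 2.66, 1.11 and 4.83 in incubation medium. All DMEM/F12 libraries lay above all others, while those of incubation medium overlapped the fresh cells. The rise was called in DMEM/F12, 3.10 (SE 0.414, adjusted p = 1.12e-05), and in incubation medium, 1.28 (SE 0.466, adjusted p = 0.0236). The latter call was lost without fresh cell replicate 3 or 2 (adjusted p 0.06 and 0.0623) or incubation medium replicate 4 (0.77, adjusted p = 0.0896). PBX2, PBX3 and PBX4 were not called in either medium, with log2 fold changes between -0.22 and 0.31; with the replicate block PBX2 was called lower in incubation medium (-0.22, adjusted p = 0.0269).

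Factors of the embryonic Müllerian duct and its coelomic origin were measured through LHX1 and WT1. LHX1 (ENSSSCG00025069211), needed to form the duct, was at 13.4, 20, 18.3 and 18.4 CPM in fresh cells, 6.31, 6.49, 6.21 and 6.11 in DMEM/F12 and 9.05, 8.66, 5.65 and 8.85 in incubation medium. The fresh cells were higher without overlap, -1.48 (SE 0.17, adjusted p = 2.51e-06) and -1.12 (SE 0.166, adjusted p = 2.98e-05). WT1 (ENSSSCG00025012994), a zinc finger factor of the coelomic lining and gonad, was at 185, 236, 226 and 208 CPM in fresh cells, 134, 174, 143 and 186 in DMEM/F12 and 113, 134, 118 and 136 in incubation medium. It was called lower in both media, -0.43 (adjusted p = 0.00426) and -0.77 (adjusted p = 3.4e-05), and 1 DMEM/F12 library reached into the fresh range. The mesothelial markers on the list had 1 tested gene, UPK1B, called higher in DMEM/F12 (0.85) and not in incubation medium (-0.01). MSX1 was not called, at 2.73 ± 1.66 CPM in fresh cells, 2.93 ± 0.95 in DMEM/F12 and 1.79 ± 0.801 in incubation medium (0.12, adjusted p = 0.815, and -0.60, adjusted p = 0.236), and its direction in DMEM/F12 turned without fresh cell replicate 3 (-0.16) or DMEM/F12 replicate 4 (-0.02). Of the fixed genes, EMX2, PAX2, PAX8, HOXA11, HOXA13, FOXL2, ZEB1 and TWIST1 had no row under their symbols in the data used here and were not analysed.

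Of 6 tested SOX genes, 4 fell in DMEM/F12 and 4 in incubation medium, beside 35.7% and 35.8% of all genes. SOX9 rose in DMEM/F12. SOX7 (ENSSSCG00025027849), of the subgroup that also includes SOX17 and SOX18, was at 236, 159, 178 and 163 CPM in fresh cells, 36.1, 32.3, 28.4 and 39.9 in DMEM/F12 and 30.8, 21.5, 19.7 and 59 in incubation medium. Every fresh library was above every spheroid library, with log2 fold changes of -2.43 (SE 0.276, adjusted p = 2.29e-06) and -2.49 (SE 0.278, adjusted p = 1.8e-06). SOX6 (ENSSSCG00025014342), which acts with SOX5 in several tissues, was at 38, 42.6, 41.1 and 52.4 CPM in fresh cells, 7.89, 8.58, 5.55 and 11.3 in DMEM/F12 and 13.6, 8.53, 7.98 and 13.3 in incubation medium. It fell in both media, -2.38 (SE 0.21, adjusted p = 1.78e-07) and -2.00 (SE 0.205, adjusted p = 7.73e-07), and its partner SOX5 did as well, from 18 ± 2.36 CPM to 7.36 ± 0.715 and 5.92 ± 0.444 (-1.29, adjusted p = 1.05e-06, and -1.60, adjusted p = 1.49e-07).

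SOX9 (ENSSSCG00025060075), a factor of progenitor and duct epithelia, was at 59.9, 48.5, 61.6 and 54.6 CPM in fresh cells, 102, 201, 275 and 187 in DMEM/F12 and 49.8, 80.9, 98.6 and 83.7 in incubation medium. Only DMEM/F12 spheroids stood clear of the fresh cells, with replicate 3 highest and replicate 1 lowest. The rise was 1.77 (SE 0.254, adjusted p = 2.27e-05) in DMEM/F12. In incubation medium it was 0.48 (SE 0.253, adjusted p = 0.104) and not called; it was called with the replicate block (0.42, adjusted p = 0.0381), without DMEM/F12 replicate 1 (0.495, adjusted p = 0.0273) and without incubation medium replicate 1 (0.66, adjusted p = 0.0253). It was also called when genes with low counts were kept (0.54, adjusted p = 0.0447) and in a fit of only the compared groups (0.47, adjusted p = 0.0316).

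SOX17 (ENSSSCG00025074117), an oviduct and endoderm factor, was at 94.5, 86.3, 70 and 76.9 CPM in fresh cells, 76.7, 60.7, 52.4 and 62.9 in DMEM/F12 and 73.3, 56.5, 67.8 and 69.7 in incubation medium. The groups overlapped, and the small falls of -0.37 (adjusted p = 0.0158) and -0.29 (adjusted p = 0.0487) were called. The DMEM/F12 call was lost without fresh cell replicate 1 or DMEM/F12 replicate 3 (adjusted p 0.0574 and 0.0628). That of incubation medium was lost when fresh cell replicate 1, 2 or 4, DMEM/F12 replicate 2 or 4, or incubation medium replicate 2, 3 or 4 was left out (adjusted p 0.0532 to 0.177). SOX18, an endothelial factor, rested on few counts, at 0, 0.895, 1.68 and 0.587 CPM in fresh cells, 1.46, 3.13, 0.528 and 2.04 in DMEM/F12 and 0.357, 0.40, 0.614 and 1.07 in incubation medium. The groups overlapped and SOX18 was not called.

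The FOX genes went both ways. Of 12 tested rows, among them both rows of FOXS1, 3 (25%) were called higher and 4 (33.3%) lower in DMEM/F12. In incubation medium 4 (33.3%) were called higher and 4 (33.3%) lower. Over all genes these shares were 35.1% and 35.7% in DMEM/F12, and 35.8% each way in incubation medium. FOXA1 and FOXA2, sister pioneer factors that open chromatin in endodermal and other epithelia, went in opposite directions. FOXA2 (ENSSSCG00025061165) was at 30.4, 24.9, 22.8 and 21.1 CPM in fresh cells, 53.2, 52.5, 56.6 and 68.5 in DMEM/F12 and 65, 70.1, 63.9 and 80.5 in incubation medium. All spheroid libraries were above all fresh ones, with log2 fold changes of 1.22 (SE 0.127, adjusted p = 9.95e-07) and 1.49 (SE 0.127, adjusted p = 1.26e-07). FOXA1 (ENSSSCG00025037314) was at 6.43, 4.65, 10.6 and 12.5 CPM in fresh cells, 2.19, 3.71, 2.64 and 3.36 in DMEM/F12 and 1.55, 2.53, 1.72 and 3.08 in incubation medium. All spheroid libraries were below the fresh ones, with log2 fold changes of -1.51 (SE 0.314, adjusted p = 0.000607) and -1.94 (SE 0.327, adjusted p = 9.63e-05), and the fresh cells themselves spread from 4.65 to 12.5 CPM.

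FOXK2 (ENSSSCG00025063979), a widely expressed regulator of metabolism and autophagy, was at 11.1, 8.41, 8.21 and 7.43 CPM in fresh cells, 23.6, 25.9, 30.9 and 24.4 in DMEM/F12 and 28, 27.4, 31.3 and 27.6 in incubation medium. It rose without overlap, 1.57 (SE 0.135, adjusted p = 1.36e-07) and 1.70 (SE 0.134, adjusted p = 6.14e-08). FOXN3, a repressor linked to the cell cycle checkpoint, rose from 33.8 ± 6.71 CPM to 66.8 ± 9.3 and 55.3 ± 6.8 (0.98, adjusted p = 1.94e-05, and 0.71, adjusted p = 0.000371). Genes of proliferation were called higher in both media for 6 of 6 tested markers, beside 35.1% and 35.8% of all genes. The medians of these markers were 2.93 and 3.37, and their part in the FOX results was not tested.

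Among the FOXO genes, which act downstream of insulin signalling and stress, FOXO4 (ENSSSCG00025049372) was at 16.7, 19, 17.4 and 19.2 CPM in fresh cells, 10.6, 8.11, 10.4 and 12.3 in DMEM/F12 and 7.14, 5.6, 5.77 and 7.24 in incubation medium. The groups formed 3 separate ranges, fresh cells highest and incubation medium lowest (-0.80, adjusted p = 0.000175, and -1.48, adjusted p = 6.86e-07). FOXO3 was called higher in incubation medium alone, at 81.4 ± 4.96 CPM in fresh cells, 85 ± 12.4 in DMEM/F12 and 100.1 ± 9.25 in incubation medium (0.06, adjusted p = 0.604, and 0.30, adjusted p = 0.0196; adjusted p = 0.0522 for the latter without fresh cell replicate 1). FOXO1, at 99.8 ± 24.6 CPM in fresh cells, 108 ± 19.9 in DMEM/F12 and 84.8 ± 16.4 in incubation medium, was not called (0.11, adjusted p = 0.6, and -0.23, adjusted p = 0.257), and fractions occurred in 91.7% of its libraries. FOXP1 fell in both media, -0.62 (adjusted p = 0.00016) and -0.79 (adjusted p = 1.85e-05).

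FOXJ3, a relative of FOXJ1, was at 73.6, 64.1, 107 and 108 CPM in fresh cells, 56.9, 45, 67.6 and 75.7 in DMEM/F12 and 50.5, 40.8, 69.5 and 78 in incubation medium. Replicates 3 and 4 were the higher libraries in every group, and the groups overlapped. Within each replicate number both spheroid libraries were below the fresh one. FOXJ3 was called lower in both media, -0.52 (adjusted p = 0.0477) and -0.56 (adjusted p = 0.0351), and both calls stood with the replicate block. Over all alternative settings the adjusted p ran from 2.28e-05 to 0.155 in DMEM/F12 and from 8.45e-06 to 0.121 in incubation medium. The DMEM/F12 call was lost without fresh cell replicate 3 or 4, DMEM/F12 replicate 1, 2 or 3, or incubation medium replicate 1 or 3 (adjusted p 0.0567 to 0.155), and the other without fresh cell replicate 3 or 4 or incubation medium replicate 1 or 2 (adjusted p 0.0973 to 0.121). FOXS1 stood on 2 rows with the same CPM in all 4 fresh libraries, and both rows may count the same reads. Neither row was called, at log2 fold changes of -0.57 to -0.65, but with the replicate block both were called lower in both media (adjusted p 0.00278 to 0.00949). FOXN2 was not called (0.17 and 0.16).

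The KLF genes, zinc finger factors that bind GC-rich promoters, included the largest falls of all members. Of 13 tested, 10 were called lower in DMEM/F12 and 11 in incubation medium, beside 35.7% and 35.8% of all genes. The family's medians were -0.83 and -1.15, and KLF3 was its only member called higher. KLF2 (ENSSSCG00025011156), a factor of quiescence and of the response to flow, was at 1246, 2031, 1179 and 1046 CPM in fresh cells, 34.1, 38, 47 and 36.2 in DMEM/F12 and 20, 26.4, 24 and 24.4 in incubation medium. The fresh libraries spanned 1046 to 2031 CPM, far above the highest spheroid library, and replicate 2 was the highest of them. Against fresh cells it changed by a log2 fold change of -5.15 (SE 0.209, adjusted p = 1.36e-10) in DMEM/F12 and -5.86 (SE 0.218, adjusted p = 6.35e-11) in incubation medium.

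KLF4 (ENSSSCG00025005446), known from epithelial barrier differentiation and pluripotency, was at 960.0, 1868, 1039.9 and 936 CPM in fresh cells, 106, 114, 95.6 and 99 in DMEM/F12 and 111, 132, 92.6 and 93.1 in incubation medium. Fresh cell replicate 2 was highest, as for KLF2, and all spheroid libraries lay far below the fresh ones. The log2 fold changes were -3.53 (SE 0.213, adjusted p = 4.69e-09) and -3.49 (SE 0.213, adjusted p = 5.15e-09). KLF11 (ENSSSCG00025024227), a TGF-beta inducible factor, was at 52.5, 65.7, 35.8 and 36.2 CPM in fresh cells, 10.8, 8.58, 8.05 and 10.4 in DMEM/F12 and 8.1, 5.73, 3.68 and 4.69 in incubation medium. It fell without overlap, -2.33 (SE 0.228, adjusted p = 5.03e-07) and -3.09 (SE 0.243, adjusted p = 5.67e-08), again with fresh cell replicate 2 on top.

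KLF15, a metabolic and glucocorticoid-responsive factor, fell from 17.1 ± 4.06 CPM to 3.05 ± 0.832 and 3.66 ± 1.23 (-2.47, adjusted p = 9.25e-07, and -2.21, adjusted p = 2.27e-06). KLF5 (ENSSSCG00025067415), a factor of proliferating epithelium, was at 568, 499, 399 and 398 CPM in fresh cells, 265, 179, 212 and 172 in DMEM/F12 and 210.3, 185, 196 and 203 in incubation medium. The fresh cells were higher without overlap, -1.17 (SE 0.143, adjusted p = 4.45e-06) and -1.23 (SE 0.143, adjusted p = 2.69e-06), with fractions in 50% of libraries. KLF7, KLF9, KLF10, KLF12 and KLF13 were all called lower in both media, by log2 fold changes of -0.50 to -0.89 in DMEM/F12 and -0.75 to -1.15 in incubation medium.

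KLF6 (ENSSSCG00025022440), induced in injured tissue, was at 578, 532, 410.1 and 417 CPM in fresh cells, 390.4, 387, 557 and 416 in DMEM/F12 and 203, 205, 223 and 161 in incubation medium. DMEM/F12 spheroids overlapped the fresh cells and were not called, -0.15 (SE 0.145, adjusted p = 0.38), while incubation medium spheroids were lower than both, -1.29 (SE 0.148, adjusted p = 2.33e-06) against fresh cells. Fractions occurred in 66.7% of its libraries. KLF3, a repressor, was at 75.1 ± 16.2 CPM in fresh cells, 108 ± 23.5 in DMEM/F12 and 111 ± 20.9 in incubation medium and called higher in both media (0.52, adjusted p = 0.0183, and 0.56, adjusted p = 0.0117). The DMEM/F12 call was lost without fresh cell replicate 1 or 2 or DMEM/F12 replicate 3 (adjusted p 0.0559 to 0.0575). KLF16 was not called, at 39.5 ± 4.49 CPM in fresh cells, 40.5 ± 1.95 in DMEM/F12 and 39.4 ± 3.29 in incubation medium (0.03 and -0.01).

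Immediate early genes, which like KLF2, KLF4, KLF6 and KLF10 can respond quickly to stimuli, moved with KLF2 and KLF4. Of 9 tested genes on that list 8 were called lower in each medium, beside 35.7% and 35.8% of all genes. The medians of the list were -4.76 and -4.81, and SRF was called in neither medium (0.12 and 0.27). The 10 rows of the list summed to 22830 to 32030 CPM in fresh cells, 444 to 514 in DMEM/F12 and 426 to 460 in incubation medium. FOS averaged 12050 CPM in fresh cells and 95.1 and 161 in spheroids. Their part in the KLF results was not tested.

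**Figure D3:**
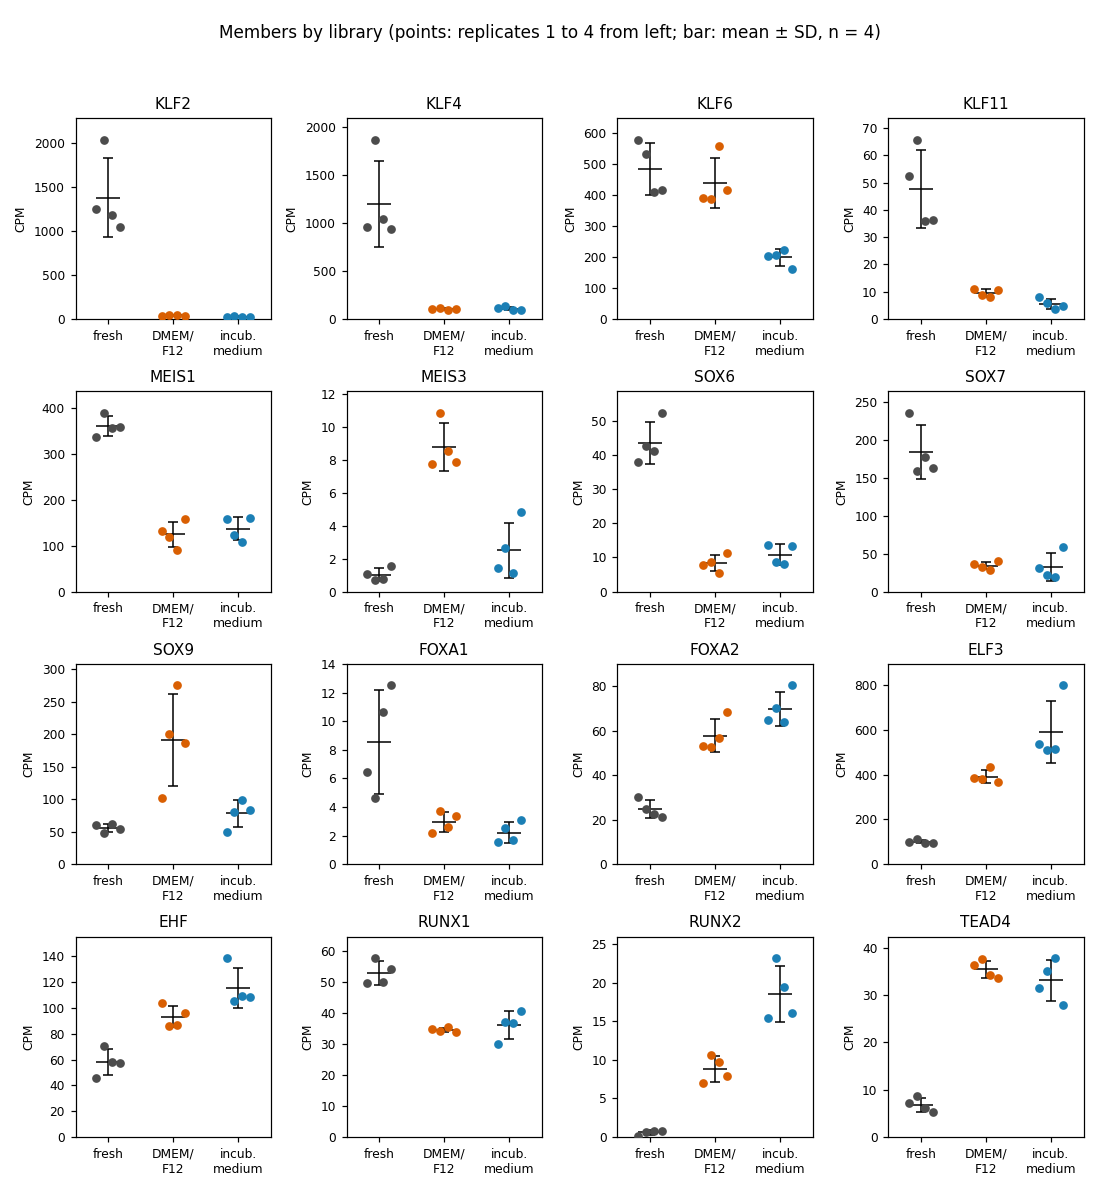
CPM of 16 members in each library, on axes from 0; points are replicates 1 to 4 from left to right, bars the mean ± SD of 4 libraries. KLF2 and KLF4 are near 0 in spheroids on the scale of the fresh cells, FOXA1 and FOXA2 go in opposite directions, and RUNX2 and TEAD4 are low in the 4 fresh libraries.

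The epithelial ETS factors rose. ELF3 (ENSSSCG00025006768), an epithelium-specific ETS factor of differentiation and inflammation, was at 98.3, 112, 96.5 and 95.6 CPM in fresh cells, 384, 381, 432 and 368 in DMEM/F12 and 534, 510.4, 515 and 798 in incubation medium. The 3 groups did not overlap, and incubation medium was highest, with its replicate 4 above the other 3. The log2 fold changes were 1.96 (SE 0.136, adjusted p = 1.72e-08) and 2.55 (SE 0.138, adjusted p = 1.8e-09). EHF (ENSSSCG00025030465), its relative in glandular epithelia, was at 45.7, 70.5, 58.2 and 57.5 CPM in fresh cells, 104, 86.5, 87 and 96.1 in DMEM/F12 and 139, 106, 109.6 and 108 in incubation medium. Every spheroid library was above every fresh one, 0.69 (SE 0.127, adjusted p = 0.000224) and 1.00 (SE 0.127, adjusted p = 6.89e-06).

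The broadly expressed ELF1 rose slightly in both media, 0.43 (adjusted p = 7.92e-05) and 0.22 (adjusted p = 0.0131), and ELF2 was called lower in incubation medium alone, -0.49 (adjusted p = 0.00346) (in DMEM/F12 -0.22, adjusted p = 0.14). Most epithelial marker rows moved in the same direction as ELF3 and EHF. Of 7 tested rows, 6 were called higher in DMEM/F12 and 5 in incubation medium. In each medium 1 was lower, EPCAM in DMEM/F12 and CLDN4 in incubation medium. KRT8 is counted on more than 1 row among the rises. Its scarcer row averaged 0.142 CPM in fresh cells, 1.52 in DMEM/F12 and 2.96 in incubation medium. CDH1, the cadherin of epithelial junctions, averaged 398 CPM in fresh cells, 1209 in DMEM/F12 and 604 in incubation medium. Of 13 tested genes on the list of other epithelial transcription factors, 6 were called higher and 4 lower in DMEM/F12, and 3 higher and 5 lower in incubation medium. Over all genes 35 to 36% were called in each direction and medium, the share to set beside both lists.

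GATA6 (ENSSSCG00025056547), an endoderm and reproductive tract factor, was at 34.2, 32.9, 31.5 and 29.5 CPM in fresh cells, 20.5, 21.3, 27.2 and 22.6 in DMEM/F12 and 26.8, 30.1, 29.7 and 29.2 in incubation medium. DMEM/F12 libraries were lower than all fresh ones, -0.49 (SE 0.101, adjusted p = 0.000594), and incubation medium was not called, -0.15 (adjusted p = 0.197). GATA3 was scarce, at 4.17, 3.76, 0.373 and 3.52 CPM in fresh cells, 0.364, 0, 0.396 and 0.36 in DMEM/F12 and 2.26, 1.47, 1.11 and 1.21 in incubation medium. No DMEM/F12 library exceeded the floor of 3 counts (0.348 to 0.587 CPM by library), so the mean of the fresh cells was at least 8.05-fold higher than the mean floor of that group (adjusted p = 0.000364), and fresh cell replicate 3 overlapped them. TFAP2A was not called (-0.06 and -0.16). TP63, the marker of basal cells, held 3 counts or fewer in every library and was not tested. KRT15, a keratin and the only tested gene of the basal list, was called higher in both media (2.58 and 0.79).

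None of the 3 tested SNAI and ZEB rows, drivers of epithelial to mesenchymal transition, was called higher in either medium. Of all genes 35.1% were called higher in DMEM/F12 and 35.8% in incubation medium. SNAI1 (ENSSSCG00025076817), a repressor of E-cadherin, was at 9.21, 7.7, 8.4 and 7.24 CPM in fresh cells, 1.94, 3.13, 2.51 and 2.04 in DMEM/F12 and 1.07, 2.93, 1.6 and 2.15 in incubation medium. It fell without overlap, -1.75 (SE 0.255, adjusted p = 2.49e-05) and -2.08 (SE 0.263, adjusted p = 6.51e-06). SNAI2 was at 4.52, 5.01, 2.99 and 1.76 CPM in fresh cells, 2.06, 1.97, 2.77 and 1.8 in DMEM/F12 and 1.9, 2.93, 0.983 and 1.74 in incubation medium. The libraries overlapped, and SNAI2 was called lower in incubation medium (-0.93, adjusted p = 0.0295) and not in DMEM/F12 (-0.74, adjusted p = 0.0702). The incubation medium call was lost without fresh cell replicate 1 or 2 or incubation medium replicate 1, 3 or 4 (adjusted p 0.0556 to 0.11). The DMEM/F12 fall was called with the replicate block (-0.71, adjusted p = 0.0466) and without fresh cell replicate 4 (-0.96, adjusted p = 0.0189).

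ZEB2 was not called, at 1.23 ± 0.592 CPM in fresh cells, 1.41 ± 1.04 in DMEM/F12 and 0.729 ± 0.39 in incubation medium. Of 11 tested genes on the list of effectors and opponents of this transition, 6 were called higher and 2 lower in DMEM/F12. In incubation medium 5 were called higher and 2 lower, beside 35 to 36% of all genes in each direction and medium. Genes of both states were called higher in DMEM/F12. The junction gene OCLN averaged 101 CPM in fresh cells and 451 and 228 in spheroids, and the cadherin CDH2 4.78, 9.69 and 6.36 CPM.

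The RUNX family split by gene. RUNX2 (ENSSSCG00025024902), best known from bone, was at 0.174, 0.716, 0.746 and 0.782 CPM in fresh cells, 7.04, 10.7, 9.77 and 7.91 in DMEM/F12 and 15.4, 23.2, 19.4 and 16.1 in incubation medium. Fresh libraries held 1 to 4 counts each, and the 3 groups were apart with incubation medium on top. The log2 fold changes were 3.85 (SE 0.312, adjusted p = 7.59e-08) and 4.91 (SE 0.294, adjusted p = 4.36e-09), the largest rises among the members, and their size is uncertain because the fresh level rests on so few counts. RUNX1 (ENSSSCG00025012101), the family member of blood and of several epithelia, was at 49.7, 57.8, 50.2 and 54.2 CPM in fresh cells, 35, 34.3, 35.4 and 33.9 in DMEM/F12 and 30.1, 37.2, 36.8 and 40.8 in incubation medium. It fell in both media without overlap, -0.61 (SE 0.0942, adjusted p = 4.23e-05) and -0.55 (SE 0.0942, adjusted p = 0.000113). RUNX3, a factor of lymphocytes and epithelia, fell from 2.37 ± 0.636 CPM to 0.906 ± 0.479 and 0.504 ± 0.219 (-1.36, adjusted p = 0.00563, and -2.19, adjusted p = 0.000337). The leukocyte markers were called lower too, 2 of 4 tested in DMEM/F12 and 4 of 4 in incubation medium, beside 35.7% and 35.8% of all genes. PTPRC was at 6.99, 2.53 and 1.20 CPM, and the part of these markers in the RUNX3 result was not tested.

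TEAD proteins bind DNA for the coactivators YAP and TAZ, which respond to cell shape and crowding. TEAD4 (ENSSSCG00025006459) was at 7.12, 8.59, 6.16 and 5.28 CPM in fresh cells, 36.3, 37.6, 34.3 and 33.7 in DMEM/F12 and 31.6, 35, 37.8 and 27.9 in incubation medium. All spheroid libraries stood above all fresh ones, with log2 fold changes of 2.38 (SE 0.141, adjusted p = 4.16e-09) and 2.28 (SE 0.142, adjusted p = 6.19e-09). TEAD1 (ENSSSCG00025033655) was at 56.6, 69.1, 57.8 and 71.6 CPM in fresh cells, 106, 159, 167 and 131 in DMEM/F12 and 91.2, 93.9, 99 and 106 in incubation medium. It rose without overlap, 1.14 (SE 0.133, adjusted p = 2.96e-06) and 0.61 (SE 0.133, adjusted p = 0.000838). TEAD3 was called higher in DMEM/F12, 0.32 (adjusted p = 0.0178), and not in incubation medium, -0.22 (adjusted p = 0.0894); the former call was lost without fresh cell replicate 4 (adjusted p = 0.0511).

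The targets of YAP and TEAD on the list did not move as 1 group. Of 11 tested, 5 were called higher and 6 lower in DMEM/F12, and 6 higher and 5 lower in incubation medium. In each direction and medium 35 to 36% of all genes were called. The medians of the list were -0.48 and 0.35. CCN1 and CCN2, which are immediate early genes as well, averaged 3589 and 5028 CPM in fresh cells against 484 and 1102 in DMEM/F12, whereas AXL went from 6.04 to 44.9 CPM and MYOF from 91.2 to 303. On the list of YAP and TEAD partners and their upstream regulators, 4 of 8 tested were called higher in each medium, 1 lower in DMEM/F12 and 2 lower in incubation medium. NF2, an upstream regulator, was at 28.3 CPM in fresh cells and 83.0 and 76.1 in spheroids. The TEAD cofactor VGLL3 was called lower in both media (-1.14 and -2.06), and WWTR1, which encodes TAZ, in incubation medium alone (-0.92).

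TBX2, a T-box repressor of the cell cycle inhibitors, rose slightly, 0.41 (adjusted p = 0.00803) and 0.49 (adjusted p = 0.00229), and TBX6 was not called in either medium. TBX3, a related repressor, did not pass the filter.

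**Figure D4:**
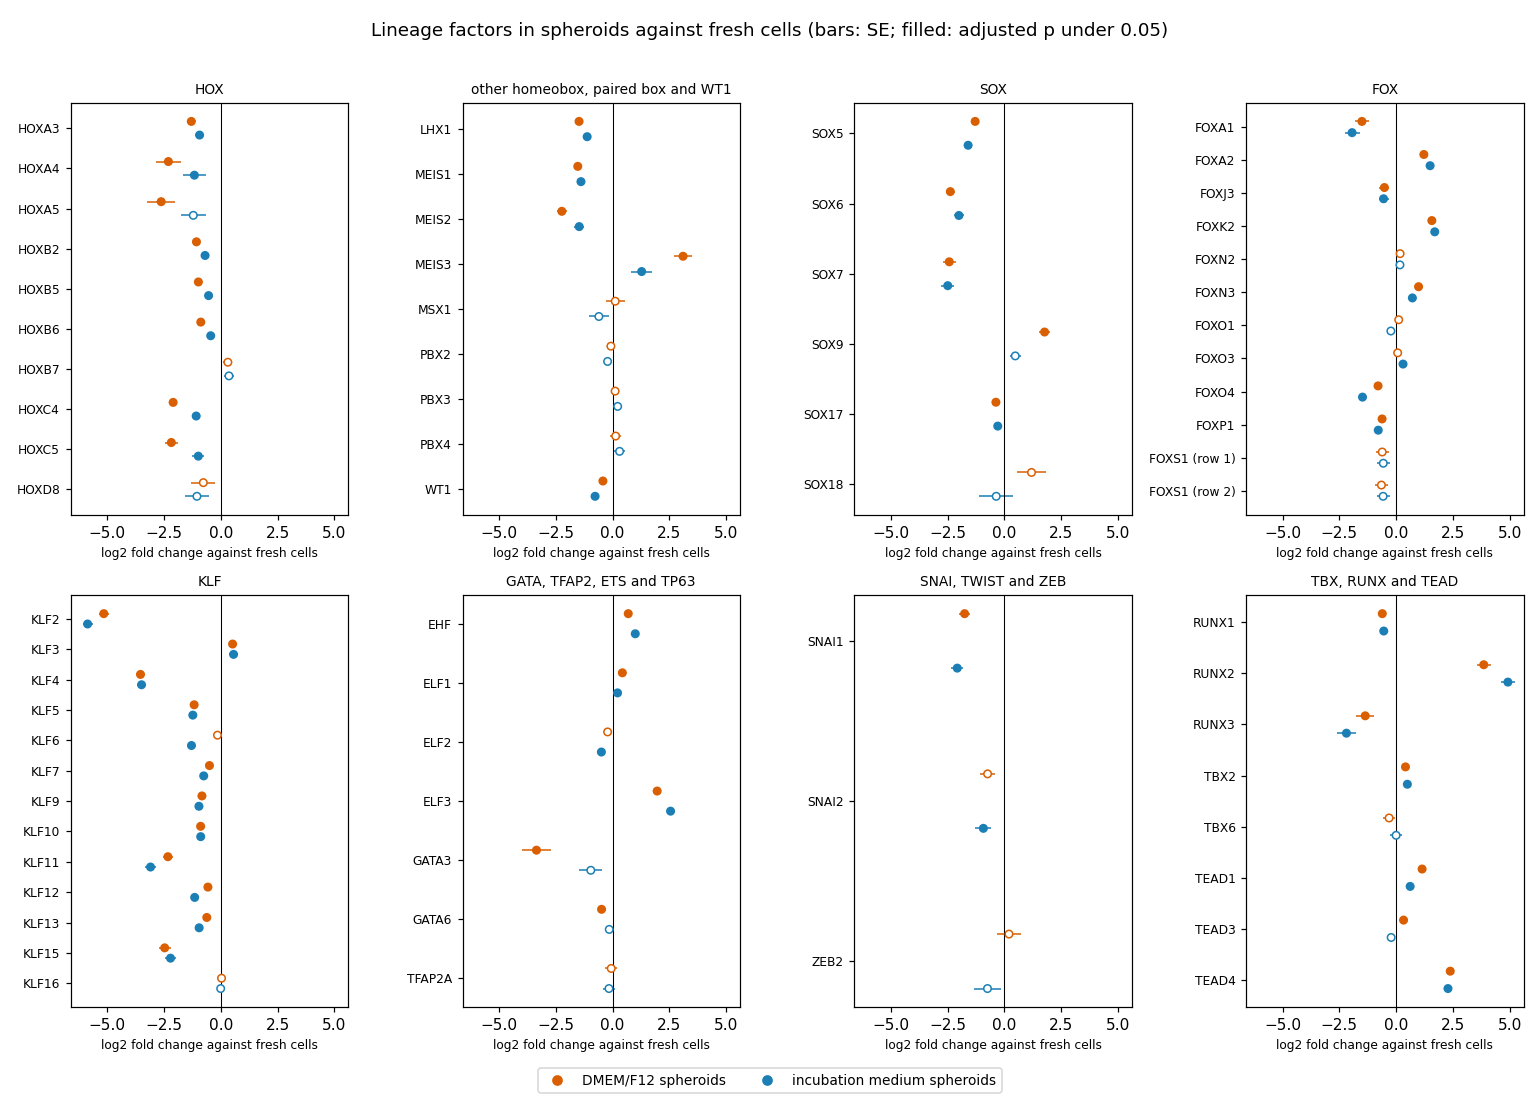
Log2 fold change against fresh cells (horizontal axis) of 68 tested member rows by family, for DMEM/F12 (orange) and incubation medium (blue) spheroids; bars are the SE and filled points have an adjusted p under 0.05. KLF2 lies farthest left at -5.86 and RUNX2 farthest right at 4.91, both in incubation medium.

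Between the media, 21 of 69 tested members were called, beside 25% of all tested genes. Of these, 7 differed at least 2-fold, 4 higher and 3 lower, beside 5.44% of all genes (2.06% higher and 3.38% lower). Of 10 tested HOX genes, 3 were called higher in incubation medium and none lower, beside 12.7% and 12.3% of all genes. For HOXC4 the 4 incubation medium libraries held 48.2, 48.4, 48.3 and 43 CPM and those of DMEM/F12 26.1, 27.5, 17 and 22.3, a log2 difference of 1.01 (SE 0.137, adjusted p = 0.00013). HOXC5 differed by 1.19 (adjusted p = 0.0088) and HOXB6 by 0.44 (adjusted p = 0.0247), both without overlap. With the replicate block HOXB2 (0.37, adjusted p = 0.0159), HOXB5 (0.44, adjusted p = 0.00428) and HOXA5 (1.43, adjusted p = 0.0258) were called higher as well. The cofactor MEIS2 (0.77, adjusted p = 0.0284) was also higher in incubation medium, and MEIS3 was lower, -1.82 (adjusted p = 0.00149).

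RUNX2 was higher in incubation medium by 1.06 (SE 0.188, adjusted p = 0.000987), at 18.5 ± 3.58 against 8.85 ± 1.66 CPM, and ELF3 by 0.59 (adjusted p = 0.00425). GATA3 was at 2.26, 1.47, 1.11 and 1.21 CPM in incubation medium and at or under 3 counts in DMEM/F12, at least 4.12-fold higher (adjusted p = 0.0208); the call was lost without DMEM/F12 replicate 2 or incubation medium replicate 1 (adjusted p 0.0541 and 0.0595). GATA6 was slightly higher, 0.34 (adjusted p = 0.0225).

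SOX9 was lower in incubation medium, at a log2 difference of -1.29 (SE 0.247, adjusted p = 0.00172), and its highest incubation medium library, at 98.6 CPM, was just under the lowest DMEM/F12 library at 102 CPM. KLF6 was lower at -1.14 (SE 0.147, adjusted p = 9.22e-05) with the groups far apart. KLF2 (-0.71, adjusted p = 0.0142), KLF11 (-0.76, adjusted p = 0.0429), KLF12 (-0.58, adjusted p = 0.000915) and KLF13 (-0.34, adjusted p = 0.025) were lower as well. Thus 5 of 13 KLF genes were called lower and none higher, beside 12.3% and 12.7% of all genes. FOXO4 (-0.68, adjusted p = 0.00448), TEAD1 (-0.53, adjusted p = 0.00867), TEAD3 (-0.55, adjusted p = 0.00236), WT1 (-0.34, adjusted p = 0.0419) and ELF1 (-0.21, adjusted p = 0.0381) were lower too. KLF4 showed no called difference (0.05, adjusted p = 0.897), nor did TEAD4 (-0.10, adjusted p = 0.582), FOXA2 (0.27, adjusted p = 0.106) or SOX17 (0.08, adjusted p = 0.685). MSX1 was called lower only with the replicate block (-0.73, adjusted p = 0.0329).

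Several of these small differences lost their call with 1 library fewer, while keeping their direction. Without DMEM/F12 replicate 2 only 5 members were called higher in incubation medium, not 9. The calls of KLF11 and WT1 were each lost on leaving out any one of 7 libraries: fresh cell replicate 1, DMEM/F12 replicates 1, 2 and 4 and incubation medium replicates 2, 3 and 4 for KLF11 (-0.607 to -0.81, adjusted p 0.0507 to 0.122), and fresh cell replicates 3 and 4, DMEM/F12 replicates 2 and 4 and incubation medium replicates 1, 2 and 3 for WT1 (-0.26 to -0.378, adjusted p 0.0509 to 0.138). The call of ELF1 was lost without DMEM/F12 replicate 2, 3 or 4 or incubation medium replicate 1, 3 or 4 (-0.186 to -0.215, adjusted p 0.074 to 0.113). That of GATA6 was lost without DMEM/F12 replicate 1, 2 or 4 or incubation medium replicate 2 or 3 (0.29 to 0.334, adjusted p 0.0538 to 0.0677), and that of MEIS2 without DMEM/F12 replicate 2 or 3 or incubation medium replicate 1 or 4 (0.59 to 0.66, adjusted p 0.0771 to 0.0856). HOXB6 lost its call without DMEM/F12 replicate 2 or 4 or incubation medium replicate 4 (0.296 to 0.418, adjusted p 0.0634 to 0.0676), and KLF13 without DMEM/F12 replicate 1 or incubation medium replicate 2 or 3 (-0.273 to -0.326, adjusted p 0.059 to 0.0814). FOXA2 and LHX1 gained a call without DMEM/F12 replicate 4 (0.37, adjusted p = 0.044) and incubation medium replicate 3 (0.49, adjusted p = 0.0367).

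**Figure D5:**
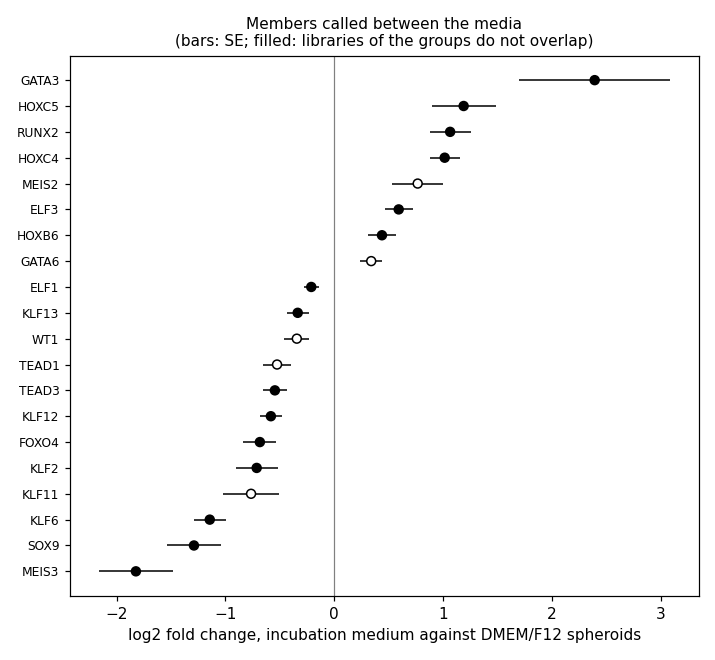
Log2 fold change of incubation medium against DMEM/F12 spheroids for 20 of the 21 called members; bars are the SE, and filled points mark members whose 4 libraries in one medium do not overlap the 4 in the other. GATA3 is highest, with a DMEM/F12 group at or under 3 counts, and MEIS3 is lowest at -1.82.

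The remaining 72 member rows did not pass the filter, and they are not shown to be off. Of these, 57 held 3 counts or fewer in every library, 24 of them 0 in all 12, and the highest single count was 15. They include 17 HOX rows, 14 rows of the other homeobox and PAX genes, 14 FOX rows and 6 SOX rows. Chosen after their values were seen, MSX2 and ELF5 had the highest single counts of these, 15 and 14.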

How the data were processed

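RNA of 12 libraries from 3 groups of 4 was measured by 3′ mRNA sequencing. For every gene the authors deposited an expected count (estimated count) in each library, per the file headers. Of the counts above 0, 19.1 to 20.5% by library had a fraction, so that a read could be shared between features. They also deposited CPM, which equalled the count over the library total to within 5e-06. The submitters' processing notes name fastp 0.24.0, STAR 2.7.11, SAMtools 1.22.1 and featureCounts of Subread 2.1.1, without settings, and the genome build is not given in the sources used here.

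Counts were rounded to whole numbers. Genes were filtered with filterByExpr (about 1.3 CPM in 4 libraries), scaled by TMM and tested with edgeR 4.0.16 (R 4.3.3) by its quasi-likelihood test in a model of the 3 groups over all 12 libraries, adjusted by the Benjamini-Hochberg method over 14070 genes. A gene was called at an adjusted p under 0.05. The SE given with a log2 fold change is its absolute value divided by the square root of the test's F statistic. The 92 spike-in rows were left out. Printed CPM use TMM-scaled library sizes. The tests were checked on simulated counts in which few genes changed and libraries shared no replicate effect. That check does not cover changes as widespread as those here, or the likeness of libraries with the same number. The alternatives were DESeq2 1.42.0, RLE scaling, library totals without TMM, no filter, a mean of at least 10 counts, a replicate block, only the compared groups, only genes with whole counts, and leaving out each library.

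The labels do not say that replicate numbers pair libraries across groups. Over all tested genes the deviations from the group mean correlated at 0.196 to 0.516 in the 12 pairs of libraries that share a number. In the other 36 pairs they correlated at no more than 0.0233. The main fit has no term for the replicate number, so its calls, p-values and SE ignore this pairing. A fit with the replicate as a block was an alternative, and its values are given where they change a call. Nothing says that replicates came from separate animals, so p-values measure only the spread between these libraries.

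The members were chosen by symbol, and members and lists were chosen with earlier results of these data known. Members described in detail are the 12 largest called changes in each direction with a mean of at least 2 CPM, with 29 fixed genes, of which 17 were tested. The marker lists covered stroma, smooth muscle, leukocytes, endothelium, mesothelium, multiciliated cells, oviduct secretory cells, basal and squamous epithelium, all epithelium and proliferation. The pathway lists covered YAP and TEAD targets and partners, effectors of the epithelial to mesenchymal transition, other epithelial factors, immediate early genes and the estrogen and progesterone axis. Sequences and gene positions were not used here, and 1 tested member, included in the counts, is not reported here.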

Additional observations from a re-analysis of the deposited data

Results flagged for a closer look

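In 17 of 207 groups of 4 libraries of the tested members, 1 library stood apart from the other 3 by more than Dixon's critical share of the group's range; chance alone flags about 1 in 20 groups. In fresh cells, KLF4 was at 1868 CPM in replicate 2 (the others 936 to 1040), ELF3 at 112 in replicate 2 (95.6 to 98.3), FOXN3 at 43.8 in replicate 4 (29.3 to 31.3), FOXP1 at 39.6 in replicate 1 (45.8 to 46.9), GATA3 at 0.373 in replicate 3 (3.52 to 4.17) and RUNX2 at 0.174 in replicate 1 (0.716 to 0.782). In DMEM/F12 spheroids, KLF6 was at 557 CPM in replicate 3 (387 to 416), HOXB5 at 16.5 in replicate 2 (24.7 to 26.4), PBX3 at 7.39 in replicate 3 (9.35 to 9.59) and GATA3 at 0 in replicate 2 (0.36 to 0.396). In incubation medium spheroids, ELF3 was at 798 CPM in replicate 4 (510 to 534), EHF at 139 in replicate 1 (106 to 110), ELF1 at 87.1 in replicate 2 (80.0 to 80.6), PBX2 at 51.4 in replicate 1 (41.8 to 43.0), HOXC4 at 43.0 in replicate 4 (48.2 to 48.4), FOXK2 at 31.3 in replicate 3 (27.4 to 28.0) and LHX1 at 5.65 in replicate 3 (8.66 to 9.05). No member was called in opposite directions against fresh cells in the 2 media (0 of 69).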

How the results depend on the processing

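Numbers of called members stayed within 1.5 times their values under other scalings, filters, DESeq2, the replicate block and fits of only the compared groups. Testing only genes with whole counts, which leaves 36 tested members, gave 6 higher and 21 lower in DMEM/F12 and 5 higher and 19 lower in incubation medium against fresh cells, and 5 lower between the media. Leaving out single libraries gave 13 to 15 higher and 34 to 38 lower for DMEM/F12, 12 to 14 and 33 to 38 for incubation medium, and 5 to 10 higher and 8 to 12 lower between the media. The replicate block gave 14 higher and 40 lower, 14 and 41, and 12 and 13, and changed no call of a tested member beyond those given above. Directions turned only for uncalled members. With library totals this happened between the media for SOX17 (-0.0166), KLF4 (-0.0483) and RUNX1 (-0.0305). On leaving out single libraries the log2 fold change of MSX1 in DMEM/F12 ran from -0.163 to 0.537 (-0.0219 without DMEM/F12 replicate 4), and between the media that of KLF4 from -0.0678 to 0.111, of KLF5 from -0.138 to 0.0845 and of SNAI2 from -0.469 to 0.0308. The cause was not tested. Calls of HOXA4, SOX17, FOXJ3, GATA6, ELF1, HOXB6, MEIS2 and WT1 were also lost under at least 1 setting that leaves out no library, and SOX9 gained its call in incubation medium under 3 such settings. Members under about 1.3 CPM could not be tested at this depth.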
